A study of Mus musculus with 4 samples.

Results

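The core pluripotency factors examined here are 8 genes, Pou5f1, Sox2, Nanog, Sall4, Lin28a, Utf1, Zfp42 and Fbxo15, taken by name from a table of 23697 loci. Each symbol matched exactly 1 row through its RefSeq identifier, so all 8 members were found. RNA was measured in WW6 mouse embryonic stem cells, a line of mixed strain background (mainly 129/Sv, with about 20% from C57/B6J and 5% from SJL), grown without feeder cells on gelatin in medium with serum and leukemia inhibitory factor. Of 4 libraries, 2 came from cells that transiently received siRNA (small interfering RNA) to GFP, called control A and B, and 2 from cells that received siRNA to Kdm5b, called knockdown A and B. Kdm5b is the gene of a histone demethylase specific for methylated lysine 4 of histone H3. All cells therefore went through transfection, and the labels give no time of harvest and do not say whether A and B were separate cultures.

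Pluripotent stem cells hold their identity through a small set of transcription factors that bind many of the same enhancers and activate one another. OCT4 (encoded by Pou5f1) and SOX2 bind DNA side by side at a joint octamer and SOX element, and NANOG is among the genes that they activate through it. The other members act beside them or downstream: SALL4 as a partner, UTF1, ZFP42 and FBXO15 as stem cell factors under control of OCT4 and SOX2, and LIN28A as an RNA-binding protein that blocks maturation of the let-7 microRNAs.

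Upstream windows of RefSeq genes (250 bases before an annotated start, GRCm38.p6) were searched for the octamer core TTTGCAT on both strands, because OCT4 recognises it. Windows were matched for 6 of the 8 members, Pou5f1, Sox2, Nanog, Lin28a, Utf1 and Zfp42, and 3 of them held the core, against 4.65% of all 27025 genes with a window. These 3 windows are shown 5′ to 3′ on the strand of the gene, with the core in capitals: Sox2 (chr3:34649745-34649994, plus strand), Nanog (chr6:122707239-122707488, plus strand) and Zfp42 (chr8:43307010-43307259, minus strand).
Sox2: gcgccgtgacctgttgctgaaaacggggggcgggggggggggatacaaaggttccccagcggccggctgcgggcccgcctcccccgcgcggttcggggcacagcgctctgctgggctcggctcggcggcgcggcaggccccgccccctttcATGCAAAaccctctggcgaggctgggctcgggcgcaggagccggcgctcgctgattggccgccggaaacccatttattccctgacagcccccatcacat
Nanog: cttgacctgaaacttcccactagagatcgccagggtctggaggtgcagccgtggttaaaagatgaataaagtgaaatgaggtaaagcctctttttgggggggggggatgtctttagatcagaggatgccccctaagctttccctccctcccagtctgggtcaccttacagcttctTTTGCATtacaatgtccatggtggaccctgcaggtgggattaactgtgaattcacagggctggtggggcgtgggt
Zfp42: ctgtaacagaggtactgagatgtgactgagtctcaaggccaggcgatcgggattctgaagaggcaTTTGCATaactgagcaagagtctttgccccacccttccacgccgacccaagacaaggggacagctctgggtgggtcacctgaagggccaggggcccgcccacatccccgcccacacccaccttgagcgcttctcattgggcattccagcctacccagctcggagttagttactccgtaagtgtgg

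The core began 75 bases before the start in Nanog and 185 bases before it in Zfp42, in both cases on the strand of the gene. For another annotated start of Nanog, whose window is not shown, the core began 151 bases before it. In Sox2 the core lay on the opposite strand, so that it is read as ATGCAAA, with its first printed base 99 bases before the start. Nanog was the 1 member whose window also held the longer joint letters TTTGCATNACAAT, which contain the core and run into the letters that SOX factors favour. Those letters were present in the windows of 6 genes, 0.0222% of those searched. A match describes the sequence only and was not tied to binding in these cells.

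Levels were deposited as FPKM, fragments mapped, scaled to transcript length and to the library's total, which allows levels of different genes to be compared per length. In the whole table, 11784 loci averaged 1 FPKM or more and were tested with limma on log2(FPKM + 1). Knockdown A stood apart from the other libraries, with 11953 loci listed at 0 against 8131 to 8609, and with an estimated 76.6% of the sequencing depth of control B. The targeted gene Kdm5b (NM_152895) was measured at 99.7 FPKM in control A, 145 in control B, 22.7 in knockdown A and 31.1 in knockdown B, which left 22.0% of the mean control level. For Kdm5b the log2 fold change was -2.14 (standard error 0.30), with an adjusted p of 0.562 in limma. With 2 libraries in each group an exact two-sided permutation test of a single value cannot give a p below 0.333, and the limma p-values below describe only the spread between these libraries.

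All 8 members were abundant in every library and entered the test. Their means over the 4 libraries ran from 88.9 FPKM for Fbxo15 to 967 FPKM for Pou5f1, above 91.3% and 98.8% of the tested loci. From the steps between low FPKM values, each member's level stood for an estimated 387 to 4782 fragments per library. The order of the means was Pou5f1, Sox2, Zfp42, Nanog, Lin28a, Utf1, Sall4 and Fbxo15. The ranges over the 4 libraries did not overlap between Pou5f1 and Sox2, between Sox2 and Zfp42, or between Nanog and Lin28a. Zfp42 and Nanog could not be placed in order beyond their spread, nor could any neighbours among Lin28a, Utf1, Sall4 and Fbxo15.

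**Figure D1:**
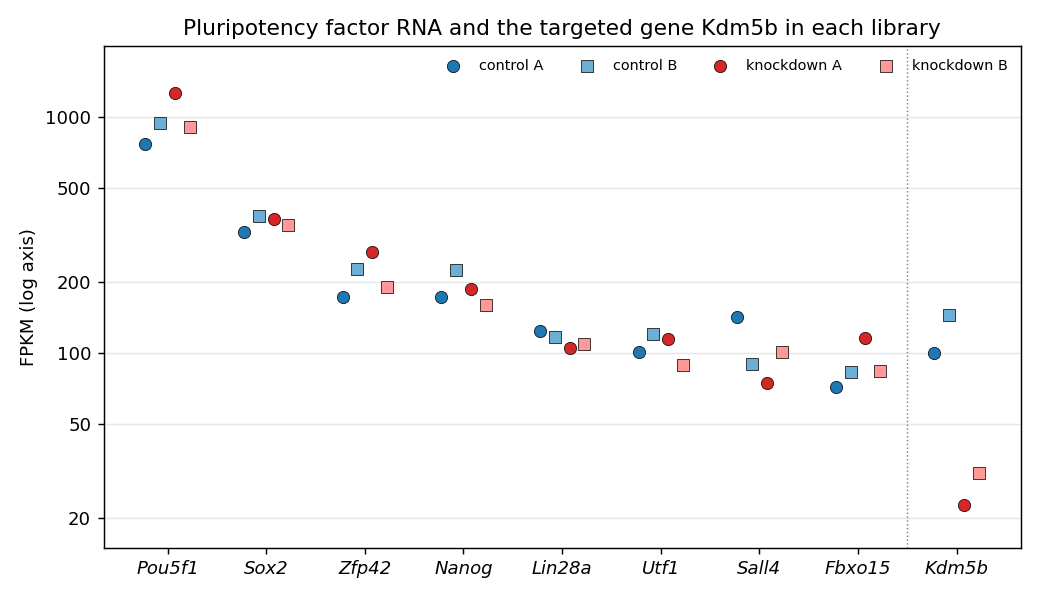
FPKM (log axis) of the 8 pluripotency factors, ordered by mean level, and of Kdm5b in each of the 4 libraries, 1 point per library. Pou5f1 lies between 767 and 1259 FPKM and the others between 71.7 and 383 FPKM, with control (blue) and knockdown (red) points interleaved for most, while both knockdown points of Kdm5b lie below both controls.

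None of the 8 members differed between knockdown and control at a limma adjusted p under 0.05, and none had an unadjusted p under 0.05. Among all tested loci 4 passed at the adjusted threshold, which is 0.0339%, and 2.46% had an unadjusted p under 0.05. The smallest adjusted p of a member was 0.918. By sign alone, 4 members had a log2 fold change above 0 and 4 below 0, with a median of -0.05 and a range of -0.38 to 0.35. The median was -0.03 over all tested loci and 0.07 over the 1889 that, like every member, averaged 50 FPKM or more. Over the 362 tested loci whose upstream window held the octamer core the median was -0.04, beside -0.03 over 8881 whose window did not. The count by sign was 2 above and 6 below without knockdown A, and also 2 and 6 without control A. It was 6 and 2 without control B and 5 and 3 without knockdown B.

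Pou5f1 encodes OCT4, the POU-domain factor without which pluripotency is lost, and its locus lies on chromosome 17 (mm9, 35642976 to 35647722, NM_001252452 and NM_013633). It was measured at 767 FPKM in control A, 939 in control B, 1259 in knockdown A and 903 in knockdown B. Knockdown A was the highest library and control A the lowest, while control B and knockdown B lay close together between them, so the groups overlapped. The means were 853 ± 122 FPKM in control and 1081 ± 251 FPKM in knockdown cells (SD, n = 2 each). The log2 fold change was 0.33 (standard error 0.26, 95% interval -0.29 to 0.95, limma adjusted p = 0.918). It was 0.09 without knockdown A, 0.18 without control A and 0.57 without knockdown B. The interval spans fold changes from 0.816 to 1.93, so neither a small loss nor a gain of nearly that upper size could be told from no difference. The pseudogene locus Pou5f1-rs4, which can share fragments with Pou5f1, was listed at 1.35 to 3.64 FPKM.

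Sox2 encodes the HMG-box partner of OCT4 and was the second most abundant member (mm9 chromosome 3, 34459302 to 34576915, NM_011443). Its level was 326 FPKM in control A, 383 in control B, 371 in knockdown A and 348 in knockdown B. The knockdown libraries both lay between the controls. The means were 354 ± 40.4 FPKM and 359 ± 16.7 FPKM (SD, n = 2 each), and the log2 fold change was 0.03 (standard error 0.21, 95% interval -0.48 to 0.53, limma adjusted p = 0.988). The sign was not stable, at -0.09 without control A and -0.02 without knockdown A, against 0.14 without control B and 0.07 without knockdown B. Sox2 lies inside the interval of the noncoding transcript Sox2ot, and shared fragments cannot be told apart here. Sox2ot was listed together with the microRNA gene Mir1897. That joint locus was 2.86 FPKM in control A, 1.84 in control B, 4.26 in knockdown A and 3.39 in knockdown B. It lay far below Sox2 in each library, and its log2 fold change of 0.54 had a standard error of 0.46 (limma adjusted p = 0.918).

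Nanog encodes the homeodomain factor of the network (mm9 chromosome 6, 122657585 to 122663796, NM_028016). Its level was 173 FPKM in control A, 225 in control B, 186 in knockdown A and 161 in knockdown B. Control B was the highest and knockdown B the lowest library, and the groups overlapped. The means were 199 ± 37.0 FPKM and 173 ± 18.0 FPKM (SD, n = 2 each). The log2 fold change was -0.19 (standard error 0.23, 95% interval -0.76 to 0.38, limma adjusted p = 0.919). It was 0.0013 without control B, -0.08 without knockdown B, -0.29 without knockdown A and -0.38 without control A.

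Sall4, a zinc finger factor that binds with OCT4 and NANOG, varied most among the members (mm9 chromosome 2, 168573831 to 168592701, NM_175303, NM_201395 and NM_201396). The 4 libraries gave 143 FPKM in control A, 90.0 in control B, 74.6 in knockdown A and 101 in knockdown B. Control A was the highest and knockdown A the lowest library, and knockdown B lay above control B, so the groups overlapped. The log2 fold change was -0.38 (standard error 0.31, 95% interval -1.13 to 0.37, limma adjusted p = 0.918). It was -0.05 without control A, -0.16 without knockdown A, -0.71 without control B and -0.60 without knockdown B. Sall4 was the 1 member whose 95% interval reached beyond 1 log2 unit. For the other 7 it lay wholly within 1 unit of 0, as it did for 32.8% of all tested loci and 68.0% of the 1889 tested loci that averaged 50 FPKM or more.

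Utf1, a chromatin-bound factor found in undifferentiated cells, lies on chromosome 7 (mm9, 147129754 to 147131011, NM_009482). Its level was 101 FPKM in control A, 121 in control B, 115 in knockdown A and 89.4 in knockdown B. The libraries stood in the same order as for Nanog, with control B highest and knockdown B lowest. For Utf1 the log2 fold change was -0.12 (standard error 0.24, 95% interval -0.71 to 0.47, limma adjusted p = 0.945). Without control B and without knockdown B it was 0.0027 and 0.06, and without control A and without knockdown A it was -0.25 and -0.30.

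Zfp42 encodes REX1, a zinc finger protein related to YY1 and a widely used marker of the naive state (mm9 chromosome 8, 44380420 to 44392363, NM_009556). The 4 libraries gave 172 FPKM in control A, 227 in control B, 268 in knockdown A and 191 in knockdown B. Knockdown A was the highest and control A the lowest library, and the groups overlapped. For Zfp42 the log2 fold change was 0.20 (standard error 0.27, 95% interval -0.45 to 0.85, limma adjusted p = 0.926). Without control A and without knockdown A it was -0.0013 and -0.05, and without control B and without knockdown B it was 0.39 and 0.44.

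Fbxo15, an F-box protein of ubiquitin ligases and a classical reporter gene of the pluripotent state, was the least abundant member (mm9 chromosome 18, 85104416 to 85150784, NM_015798). It was measured at 71.7 FPKM in control A, 83.6 in control B, 116 in knockdown A and 84.3 in knockdown B. Both knockdown libraries lay above both controls, though knockdown B and control B were nearly equal. This was the 1 member with that order, found at 15% of all tested loci. The log2 fold change was 0.35 (standard error 0.25, 95% interval -0.27 to 0.97, limma adjusted p = 0.918). It was 0.12 without knockdown A and 0.58 without knockdown B. Fbxo15 shares its locus interval with Timm21, the gene of a mitochondrial import subunit. The sources used here do not say whether strand was used in counting, and shared fragments cannot be told apart. Timm21 was 17.7 FPKM in control A, 22.0 in control B, 2.71 in knockdown A and 12.2 in knockdown B, a difference of -1.56 ± 0.61 log2 units (standard error, adjusted p = 0.918 in limma).

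Lin28a, the RNA-binding member, had the tightest groups (mm9 chromosome 4, 133559244 to 133574731, NM_145833). The 4 libraries gave 124 FPKM in control A, 117 in control B, 105 in knockdown A and 109 in knockdown B. Both knockdown libraries lay below both controls, as they did at 16.9% of all tested loci. The means were 121 ± 4.51 FPKM and 107 ± 2.80 FPKM (SD, n = 2 each), which left 88.8% of the mean control level. For Lin28a the log2 fold change was -0.17 (standard error 0.21, 95% interval -0.67 to 0.33, limma adjusted p = 0.918). It kept its sign with any 1 library left out, between -0.21 and -0.13. The limma standard error is pooled with other genes of like level, so it exceeds the spread of these 4 values.

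**Figure D2:**
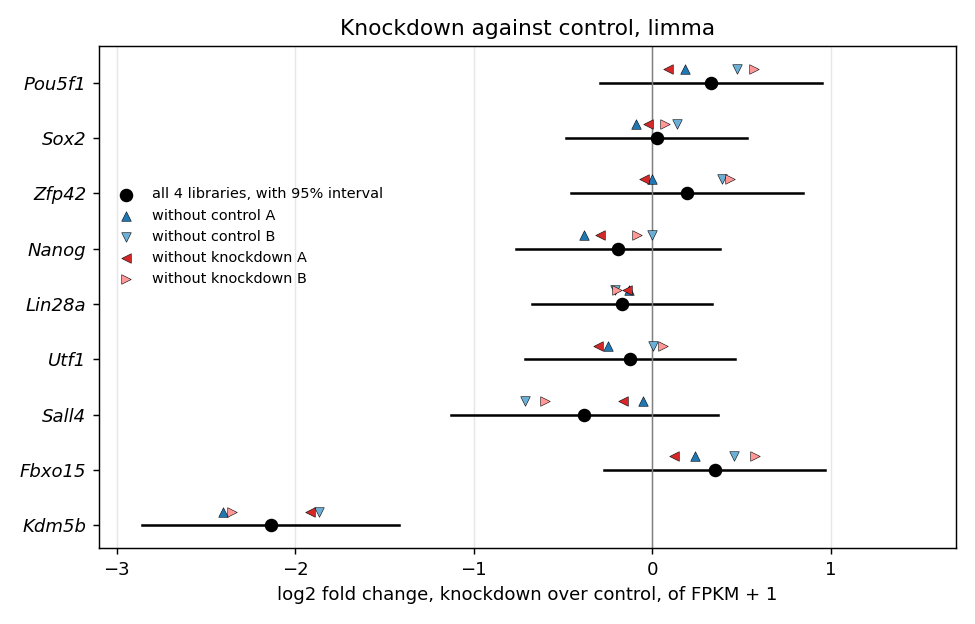
Log2 fold change (knockdown over control, of FPKM + 1) of each pluripotency factor and of Kdm5b, with the limma 95% interval as a bar and coloured triangles for the value with 1 library left out. All 8 intervals of the pluripotency factors include 0, and that of Kdm5b runs from -2.86 to -1.42.

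The members showed patterns over the libraries in which control and knockdown libraries were mixed. Among the 28 pairs of members, profiles of log2(FPKM + 1) centred on their mean were closest for Pou5f1 and Fbxo15, with a root mean square difference of 0.03 log2 units over the 4 libraries. The ratio of Pou5f1 to Fbxo15 was 10.7, 11.2, 10.8 and 10.7 in controls A and B and then knockdown A and B, although the highest library exceeded the lowest by 1.64 times for Pou5f1 and 1.62 times for Fbxo15. Zfp42 followed them, at 0.08 from Pou5f1 and 0.10 from Fbxo15. Nanog and Utf1 formed the next closest pair that did not hold Pou5f1 or Fbxo15, at 0.08, and the ratio of Nanog to Utf1 stayed between 1.61 and 1.86. The most distant pair was Pou5f1 and Sall4, at 0.59, with a ratio of 5.37 in control A, 10.4 in control B, 16.9 in knockdown A and 8.91 in knockdown B. These pairs were picked by their values, and 4 libraries allow many genes to look alike.

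Each library also had its own direction. Control A held the lowest value of 4 of the 8 members and the highest of 2, Sall4 and Lin28a. Knockdown A held the highest value of 3 (Pou5f1, Zfp42 and Fbxo15) and the lowest of 2, again Sall4 and Lin28a. Knockdown B held no highest value. Pou5f1 alone made up 40.9% and 43.0% of the summed FPKM of the 8 members in controls A and B, and 50.4% and 45.5% in knockdown A and B. The median deviation of the members from their mean over the libraries was -0.11 log2 units in control A, 0.07 in control B, 0.09 in knockdown A and -0.07 in knockdown B. In those 1889 loci of 50 FPKM or more the same medians were -0.11, 0.04, 0.07 and -0.00014, and over all 11784 tested loci they were 0.03, 0.02, -0.03 and 0.02.

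The deviations were also set beside transcript length. Sall4 and Lin28a have the longest transcripts of the members, at 5073 and 3505 bases, Sox2 and Nanog have 2057 and 2211 bases, and Utf1, Pou5f1, Fbxo15 and Zfp42 have the shortest, at 1227, 1362, 1437 and 1772 bases (GENCODE M21, longest transcript tied to the RefSeq identifiers). Among those abundant loci, the median deviation in knockdown A was 0.14 for 962 loci of up to 2000 bases, 0.06 for 611 loci of over 2000 to 4000 bases and -0.0019 for 303 longer loci. In control A it was -0.12, -0.13 and -0.06, which is not in order of length. Pou5f1 and Sall4 deviated by more, at 0.40 and -0.41 in knockdown A and -0.31 and 0.52 in control A. Utf1, the shortest, was at 0.12 in knockdown A and -0.06 in control A. Whether transcript length had a part in the deviations of the members was not tested. With each library centred on loci of like length, the log2 fold changes of Pou5f1, Fbxo15, Zfp42 and Sox2 were 0.22, 0.24, 0.08 and -0.04. Those of Nanog, Utf1, Lin28a and Sall4 were -0.25, -0.24, -0.23 and -0.40, each farther below 0 than without centring, and none of the 8 passed limma.

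**Figure D3:**
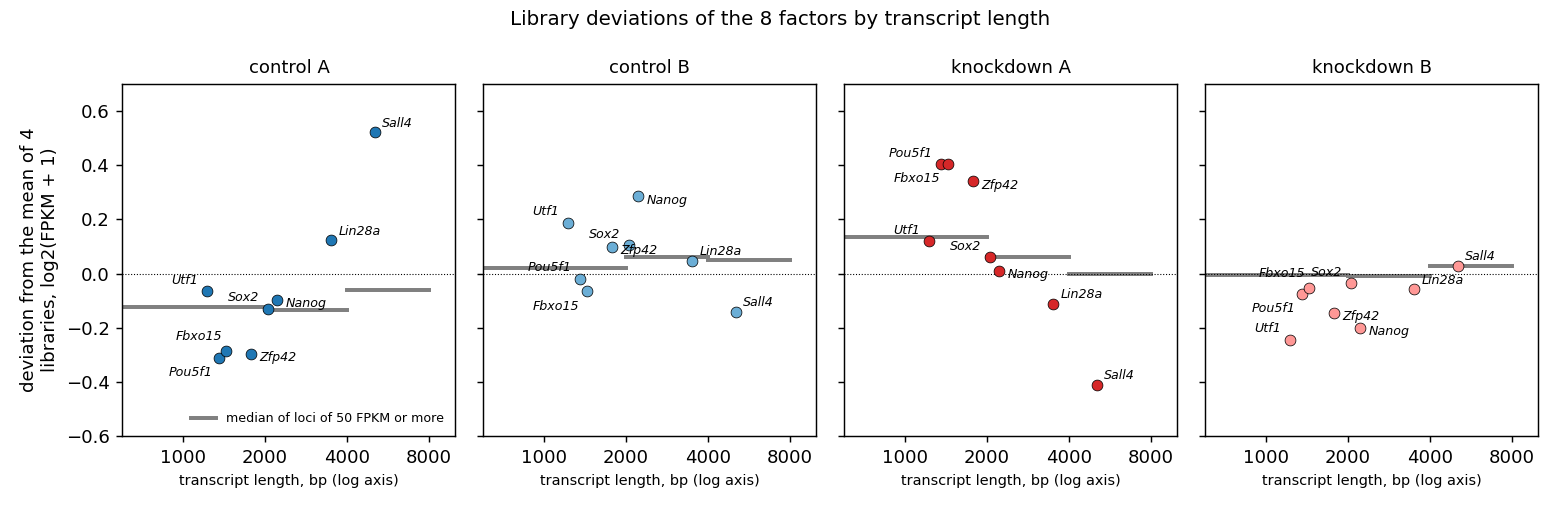
Deviation of each pluripotency factor from its mean over the 4 libraries, in log2(FPKM + 1), against transcript length in bases (log axis), 1 panel per library, with grey bars for the median of all loci of at least 50 FPKM in 3 length classes. Sall4 lies at 0.52 in control A and at -0.41 in knockdown A, while Pou5f1 lies at -0.31 and 0.40. The grey bars of knockdown A run from 0.14 to -0.0019.

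The spread of each member over the 4 libraries was set beside that of the 500 tested loci nearest to it in mean level. Sox2 and Lin28a were among the steadier genes, with a SD over all 4 libraries of 0.10 log2 units each, below which lay 9.4% and 8.6% of their neighbours in level. Sall4, at 0.39, had a larger SD than 81.4% of its neighbours. The remaining 5 members had SDs between 0.19 and 0.30 and lay nearer the middle, above 36.4% (Utf1) to 64.2% (Pou5f1) of their neighbours. Kdm5b lay above 97.6%.

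For the central factors the closest profiles elsewhere in the table were sought among 6279 genes averaging 10 FPKM or more. Closest to Pou5f1 were Trnt1, which adds the CCA end to transfer RNAs, and Entr1, at root mean square differences of 0.0096 and 0.012 log2 units over 4 libraries. Closest to Sox2 were Nipsnap1 and the stem cell gene Dppa4, at 0.0082 and 0.0089. Dppa4 was 72.3 FPKM in control A, 86.5 in control B, 83.6 in knockdown A and 77.9 in knockdown B. This is the order of libraries of Sox2, which follows from picking genes by likeness of profile. Closest to Nanog were Nadk2, a mitochondrial NAD kinase, and the transfer RNA synthetase gene Eprs, at 0.0045 and 0.031.

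Genes that work with the members were then described by list. Of 61 genes on lists of partner transcription factors, of targets and stem cell markers, and of the Lin28 and let-7 axis, 60 were tested and none passed limma over all loci, while 5 had an unadjusted p under 0.05. By sign 28 were above and 32 below 0, with a median log2 fold change of -0.05. The 5, against 2.46% of all tested loci, were Klf4, Klf5, Dppa3, Lefty2 and Slc2a3. Groups did not overlap for 6 genes higher and 11 lower in knockdown, and for 31.9% of all tested loci.

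Among 23 partner transcription factors, 12 lay above and 11 below 0 (median 0.01). No partner had both knockdown libraries above both controls and 5 had both below (Esrrb, Tfcp2l1, Klf4, Klf5 and Nr0b1), an order found at 16.9% of all tested loci. The groups overlapped for the other partners, among them Klf2 (0.06), Prdm14 (0.15) and Nr5a2 (0.40). By size of change the leading partners were Tcf7l1, Klf5 and Klf4. Klf5 was 95.5 FPKM in control A, 55.4 in control B, 31.7 in knockdown A and 41.5 in knockdown B (-0.99 ± 0.33, log2 fold change ± standard error). Klf4 gave 46.5 and 55.4 FPKM in the controls against 29.3 and 26.8 FPKM, or -0.84 ± 0.25 on the same scale, and both genes had a limma adjusted p of 0.918. Tcf7l1, a repressor of the network, was 9.48 FPKM in control A, 3.11 in control B, 0 in knockdown A and 4.97 in knockdown B, and shares its interval with another locus. The median of the partners lay below 0 with any 1 library left out, between -0.12 and -0.07.

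Among 23 tested targets and stem cell markers, 14 lay above and 9 below 0 (median 0.12, ranging from -0.0018 without control A to 0.16 without control B). The leading genes were Dppa3, a maternal factor, Lefty2, an inhibitor of Nodal, and Ooep, an oocyte and embryo protein, at 0.97 ± 0.35, 0.81 ± 0.28 and 0.58 ± 0.24 (log2 fold change with its standard error, adjusted p = 0.918 for each in limma). Dppa3 was 25.3 FPKM in control A, 33.8 in control B, 43.1 in knockdown A and 78.1 in knockdown B. In each of these 3 genes both knockdown libraries lay above both controls. On the whole list that order held for 6 of the 23 genes and the opposite order for 3, against 15% and 16.9% of all tested loci. The summed level of the list ran from 4493 to 4993 FPKM in the 4 libraries.

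On the Lin28 and let-7 axis 12 of 14 genes lay below 0 (median -0.28), as did 6229 of all 11784 tested loci. Without knockdown A the count on the list was 8 and the median -0.08, and without knockdown B they were 12 and -0.52. Both knockdown libraries lay below both controls for 3 of the 14 and above them for none, against 16.9% and 15% of all tested loci. The leading genes were Dis3l2, the nuclease that degrades precursors marked through LIN28, Hmga2 and Igf2bp3, the latter both let-7 targets. Dis3l2 was 14.5 FPKM in control A, 13.4 in control B, 4.64 in knockdown A and 11.7 in knockdown B. Igf2bp3 gave 32.5 and 31.0 FPKM in the controls against 18.1 and 23.3 FPKM in knockdown A and B, a difference of -0.60 ± 0.27 log2 units (standard error, adjusted p = 0.918 in limma). Hmga2 was near 1 FPKM, between 0.15 and 1.99 FPKM. Lin28b, the paralog of Lin28a, was 13.2 FPKM in control A, 16.8 in control B, 10.1 in knockdown A and 14.8 in knockdown B, well below Lin28a in each library.

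Relatives of the members were lower in level than the members themselves. The most abundant of 11 paralogs were Yy1 and Sall1, at 31.7 to 52.4 FPKM and 22.9 to 48.4 FPKM. Pou3f1, a POU factor of the formative state, was 7.72 FPKM in control A, 14.6 in control B, 1.08 in knockdown A and 9.95 in knockdown B. Sox3 was 0.49 FPKM in control A, 0.25 in control B, 2.11 in knockdown A and 1.26 in knockdown B. Sall2 was at 5.00 and 4.51 FPKM in the controls against 1.99 and 2.93 FPKM. None of the 11 passed limma, and 8 lay below 0, as did 6229 of all 11784 tested loci. Their median was -0.26, which ranged from -0.09 without knockdown A to -0.39 without knockdown B and was -0.16 without control B.

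**Figure D4:**
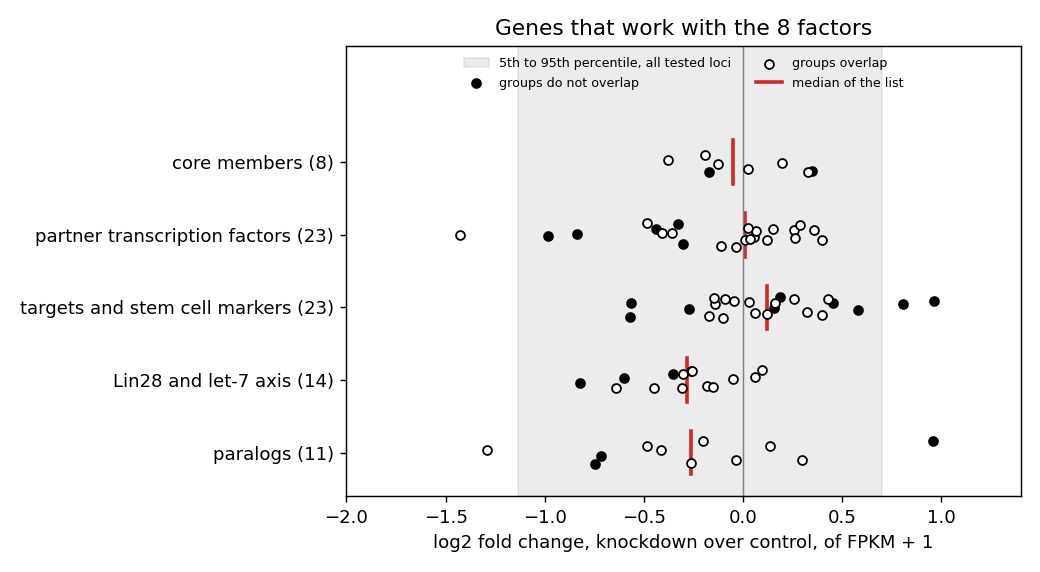
Log2 fold change (knockdown over control, of FPKM + 1) of each tested gene on 5 lists, with the number tested in parentheses, filled points where the 2 groups of libraries do not overlap and a red line at each median. The grey band spans the 5th to 95th percentile of all tested loci, -1.13 to 0.70, and all 8 pluripotency factors lie inside it.

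Markers of other cell types were low in the same libraries. Each list's summed level over its whole set stood at 2.90 to 9.76 FPKM for 8 primitive endoderm genes, at 0.61 to 3.54 FPKM for 6 mesoderm genes and at 2.37 to 9.94 FPKM for 7 fibroblast genes. The 8 pluripotency factors summed to 1876 to 2495 FPKM. The mesoderm factor Mesp1 was at 0 in every library, as were 5 of 6 two-cell-like genes, and Foxa2, Afp, Cdx2, Elf5, Col1a1, Col1a2, Col3a1 and Postn were under 1 FPKM in each. The 5 neural ectoderm genes summed to 60.6 to 70.2 FPKM, most of it Tubb3, and the 7 trophoblast genes to 34.5 to 84.3 FPKM, most of it Krt8, Krt18 and Tfap2c. The primitive endoderm sum was 7.77 and 9.76 FPKM in controls A and B and 3.37 and 2.90 FPKM in knockdown A and B. Both knockdown libraries lay below both controls for Gata4, Dab2, Sox17, Sox7 and Afp, all at low levels. Knockdown A was listed at exactly 0 for each of these genes, and a 0 may be a failed estimate. That library also had the most loci at 0, at 11953 against 8131 to 8609 in the others. The groups overlapped for Gata6, Foxa2 and Pdgfra, with Gata6 at 2.32 FPKM in knockdown A against 1.81 and 2.09 FPKM in the controls. Of the 8 primitive endoderm genes 3 were abundant enough to be tested and none passed limma. The lower order held for 2 of these 3, against 16.9% of all tested loci. Krt8 and Krt18 also had that order, and the groups overlapped for Tfap2c. For Krt18, knockdown B (12.2 FPKM) nearly equalled control B (12.4 FPKM). Among the 5 neural ectoderm genes both knockdown libraries lay below both controls for Tubb3 and above them for Neurod1. The groups overlapped for the rest of that list. Of the 3 tested fibroblast genes, Thy1 and Acta2 had the lower order and Pdgfrb the higher. In bulk samples fewer cells of a type and less RNA per cell cannot be told apart. The part of these markers in the members' values was not tested.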

How the data were processed

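Ribosomal RNA was removed from Trizol extracts, and cDNA made with oligo-dT plus hexamer priming was sheared to 300 bp for directional libraries, per the labels' protocols. The authors deposited 1 table of FPKM values and, per the submitters' processing notes, used Cufflinks and Cuffdiff with mm9. For the aligner, the versions and the strand setting, nothing is given in the sources used here. A value of exactly 0 may be a failed estimate.

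Loci were named through a RefSeq table of GRCm38.p6 (23241 of 23697 with 1 symbol, 189 with several, 267 with none), used for names only; mm9 coordinates are those of the deposited table. Loci averaging 1 FPKM or more were tested on log2(FPKM + 1), which understates changes of low genes. The test was limma 3.58.1 in R 4.3.3 (group alone, eBayes with trend, two-sided, Benjamini-Hochberg over all 11784, threshold 0.05). Its code was checked on simulated data with known changes, whose spread was set and not taken from these libraries. Depth was estimated from steps between low FPKM values in single-transcript loci: 80.2% to 83.1% lay within 0.15 of whole fragments.

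Named genes are the 8 members, Kdm5b, the 3 tested genes with the largest absolute log2 fold change of each network list, and the 2 nearest profiles of Pou5f1, Sox2 and Nanog; other genes were named after their values were seen. The members and lists were chosen with earlier results of these data known. One listed gene is not reported here. Alternatives were pseudocounts, filters, scalings, eBayes settings, a replicate block and each library left out; centring by transcript length was added after seeing the data. Tables used pandas 2.3.3 and numpy 2.4.6, and figures matplotlib 3.10.9, under Python 3.11.15.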

Additional observations from a re-analysis of the deposited data

How the results depend on the processing

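No member passed limma under any alternative that was run; the smallest adjusted p of a member was 0.357 (Fbxo15). Pseudocounts and scalings kept the sign of all 8 members. Filters, eBayes settings and the replicate block cannot move these fold changes and bear only on their p-values. With a library left out, Sox2 ranged from -0.091 (without control A) to 0.14, Nanog from -0.38 to 0.0013 (without control B), Utf1 from -0.30 to 0.058 (without knockdown B) and Zfp42 from -0.045 (without knockdown A) to 0.44, so that each changed sign. Sox2 was also at -0.022 without knockdown A, Zfp42 at -0.0013 without control A, Utf1 at 0.0027 without control B, and Sox2 at -0.038 when centred by transcript length. The median of the members ranged from -0.094 (without knockdown A) to 0.072 (without control B) and that of the 60 network genes from -0.094 (without control A) to -0.015 (without knockdown A), and centring by length put the members' median at -0.14.

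The number of loci called, 4 in all, was 1 with no filter, 2 with eBayes without trend, 2 when centred by length over the 1876 loci tested there, and 0 to 134 with a library left out (0 without either control, 13 without knockdown A and 134 without knockdown B). The replicate letter as a block gave 7 calls, none a member. The letters did not pair the libraries (r = -0.07 between letter deviations across loci), and with 2 pairs this is a description only. The cause of these shifts was not tested. With 2 libraries a group, 95% intervals of the members, not adjusted for the number of loci, had a median half-width of 0.60 log2 units. Smaller differences could not be resolved, and larger ones need not pass the adjusted threshold. Kdm5b, at a log2 fold change of -2.14, had a limma adjusted p of 0.562.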
